A study of Mus musculus with 9 samples.

Results

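Lungs of mice exposed to cigarette smoke and lipopolysaccharide (LPS), here the model group, were compared with lungs of unexposed mice, the control group, gene by gene. The comparison used 6 of the 9 RNA libraries of the series, 3 of the model group (M1 to M3) and 3 of the control group (C1 to C3), and left out the 3 libraries of exposed mice treated with the decoction QJHTD. A gene was a member where it reached at least 1 TPM (transcript abundance as reads per gene length, relative to the library's total) in at least 3 of these 6 libraries and did not belong to 4 classes described below. This gave 15468 genes of 56263 in the table, 13552 of them protein-coding and 559 of them loci assembled by the authors. All mice were male wild-type BALB/c, an inbred albino strain, bought at 6 to 8 weeks of age and kept for 7 days before the experiment of 42 days. The mice for modelling received 20 µg of LPS into the trachea under pentobarbital on days 1 and 14. On the other days they were exposed 3 times to smoke, each time from 6 cigarettes and lasting 30 min. Control mice received neither, and mice of both groups were gavaged with vehicle. The study kept 8 mice per group, and the labels do not say that each library came from a separate mouse, so p values measure the spread between these libraries, which may be technical.

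Chronic obstructive pulmonary disease narrows the airways and destroys alveolar walls, and smoke with LPS is used to imitate it in mice. LPS of Gram-negative bacteria is bound by CD14 and sensed by TLR4, whose signal through MyD88 and NF-kB turns on cytokines and chemokines that call neutrophils and monocytes into the lung. The gas exchange surface itself is built by flat alveolar type 1 cells, surfactant-making type 2 cells, capillary endothelium and fibroblasts, while club and ciliated cells line the small airways. Lung tissue was sequenced, so fewer cells of a type and less RNA per cell cannot be told apart in any of the values below. Which part of the lung was taken is not given in the sources used here.

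Before the comparison, 4 classes of genes that took large and unequal shares of the libraries were set aside. The 702 segments of antibodies and T-cell receptors, transcribed by B and T lymphocytes, took up 0.456% ± 0.155 of all deposited TPM in control lungs and 38.6% ± 3.76 in model lungs (SD, n = 3). Scgb1a1, the main secretory protein of club cells, held 22.4% ± 1.27 and 2.08% ± 1.00 (SD, n = 3). The 37 genes of the mitochondrial genome held 7.92% ± 0.910 and 3.51% ± 1.21, and the 12 hemoglobin genes 1.28% ± 0.446 and 0.209% ± 0.0253 (SD, n = 3). Together these classes held 32.1% ± 1.10 and 44.4% ± 2.33 (SD, n = 3). The groups did not overlap in any of the 4 classes (2-sided exact permutation p = 0.1 each, the smallest that 3 libraries against 3 allow). TPM of the other genes were then rescaled to the same total in each library. After this step Sftpc, the surfactant protein C of type 2 cells, was the most abundant gene in all 6 libraries. The number of reads behind a TPM value cannot be recovered, so sequencing depth is unknown here.

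**Figure D1:**
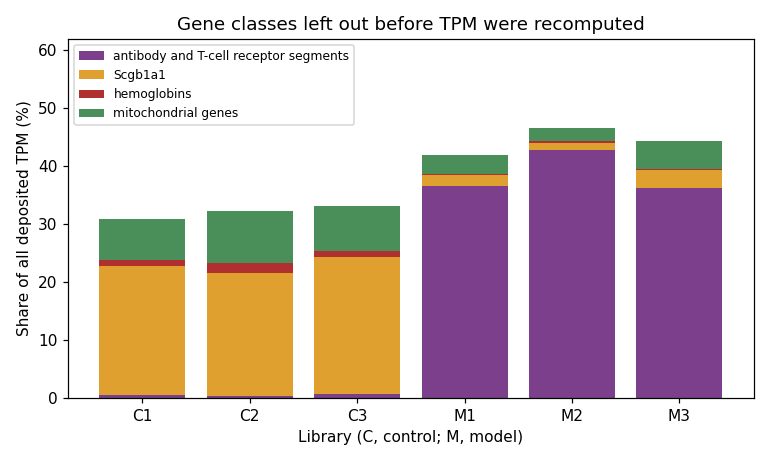
Share of all deposited TPM (vertical axis, %) held by the 4 gene classes that were left out, stacked for each of the 3 control (C1 to C3) and 3 model (M1 to M3) libraries. Scgb1a1 made up most of the bar in the control libraries (21.3% to 23.8%), and antibody and T-cell receptor segments in the model libraries (36.2% to 42.9%).

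On the recomputed values, 3199 genes were higher in the model group (20.7% of the 15468 tested) and 6456 were lower (41.7%), at an adjusted p under 0.05 by limma on log2(TPM + 1). The scale moved this balance. The median log2 fold change over all genes was −0.26 on recomputed TPM, −0.50 on TPM as deposited and −0.01 after median-ratio rescaling, which sets the middle gene of each library level. The deposited scale gave 2288 higher and 8859 lower genes, median-ratio rescaling 4537 and 4351. A gene is therefore said to have risen or fallen only where it passed the test in the same direction under all 3 scalings. This held for 2287 higher genes (14.8% of those tested) and 4351 lower genes (28.1%), and counts of list members are given by this rule, to be read against these shares. The deposited scale limits the rises (2288) and the median-ratio scale the falls (4351). The excess of falls over rises under this rule therefore depends on the rule itself, and is not a result that holds on every scale. Fold changes are on the recomputed scale, model minus control, and stand beside the median of −0.26 over all genes. A log2 change of at least 2 was reached by 739 of the genes that rose and 478 of those that fell, and one of at least 5 by 55 and 6. The fold on log2(TPM + 1) understates the change of low genes.

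**Figure D2:**
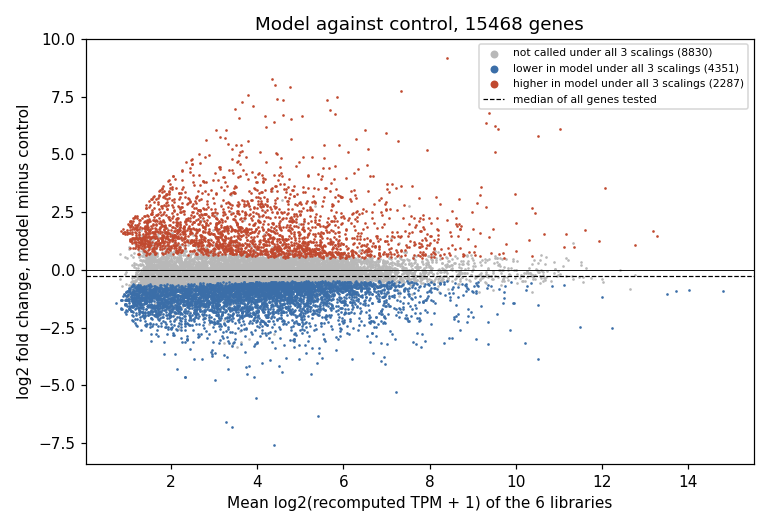
Each point is 1 of the 15468 genes, with the mean log2(recomputed TPM + 1) of the 6 libraries on the horizontal axis and the log2 fold change of model against control on the vertical axis. Red points (2287) rose and blue points (4351) fell under all 3 scalings, and the dashed line is the median of all genes at −0.26.

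The libraries of a group lay close together. Pearson's r of log2(TPM + 1) across genes was 0.967 to 0.971 between control libraries, 0.964 to 0.974 between model libraries and 0.787 to 0.824 between the groups. Genes are not independent replicates, so these values describe the libraries. Of the variance, 81.2% lay on the first principal component, which separated the groups. The median SD of log2(TPM + 1) over the 10669 genes that averaged 5 TPM or more in both groups was 0.135 in the control and 0.129 in the model group, and 48.3% of these genes had the larger SD in the model group. The lung markers Sftpc (20650 to 47934 TPM), Sftpb (1885 to 3125 TPM), Ager (820 to 2956 TPM) and Pecam1 (99.7 to 419 TPM) were high in all 6 libraries.

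Genes of other tissues were uneven between the groups and within them. The 15 heart muscle genes tested summed to 1151, 2161 and 3607 TPM in C1 to C3 and to 194, 104 and 403 TPM in M1 to M3, with none at 0 in a model library. Of these genes 13 fell and 0 rose (median log2 fold change −3.14). Myl7, an atrial myosin light chain, measured 249, 551 and 703 TPM in the control and 28.9, 12.7 and 64.9 TPM in the model libraries. Fat-cell genes summed to 312 to 688 TPM in the control and 49.0 to 150 TPM in the model group, and 9 of 10 fell (median −2.33). Car3, a carbonic anhydrase abundant in fat, fell by 3.79 on the log2 scale (standard error 0.89, adjusted p = 0.0086). Mesothelial genes, of the lung's outer lining, summed to 210 to 240 and 64.7 to 159 TPM, and 7 of 9 fell (median −1.79). Erythroid genes other than hemoglobins fell in 3 of 5 cases and genes of nerve and Schwann cells in 3 of 6, with 0 members that rose in any of these lists. Library M2 was the lowest of the 6 in heart, fat, mesothelial and ciliated-cell genes, and the model libraries did not overlap the control libraries in any of the 5 sums. Whether these differences come from an unequal content of other tissue was not tested, nor was their part in the results below.

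**Figure D3:**
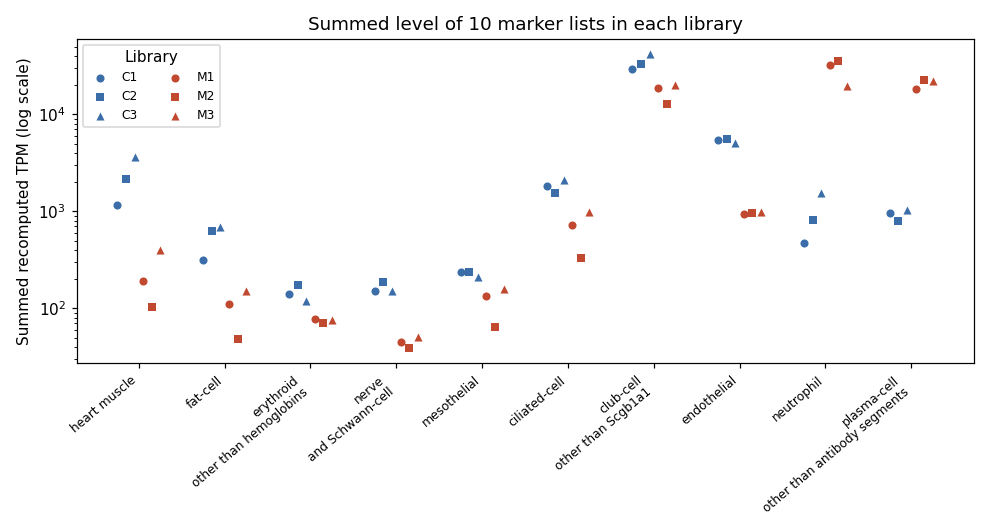
Summed recomputed TPM (vertical axis, log scale) of the tested members of 10 marker lists in each control (blue) and model (red) library. The neutrophil sum rose from 468 to 1549 TPM in the control libraries to 19444 to 35631 TPM in the model libraries, the endothelial sum was 5046 to 5539 and 941 to 989 TPM, and M2 was lowest in ciliated-cell genes at 334 TPM.

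The largest rises were those of secreted defence proteins, stefins and enzymes of activated phagocytes. Saa3, an acute-phase apolipoprotein made locally in inflamed tissue, measured 9.80, 17.9 and 12.4 TPM in the control libraries and 9719, 11220 and 4847 TPM in the model libraries. It rose by 9.17 on the log2 scale (standard error 0.34, adjusted p = 4.26e-06). Acod1, which makes itaconate in activated macrophages, measured 0.0869, 0.399 and 0.523 TPM in the control and 382, 333 and 317 TPM in the model libraries (log2 fold change 8.02, standard error 0.15). Il1rn, the antagonist of the IL-1 receptor, rose by 6.92 from 3.68 ± 0.515 to 571 ± 103 TPM, and Slpi, a leukocyte protease inhibitor of airway fluid, by 6.79 from 62.5 ± 5.50 to 7071 ± 1224 TPM (SD, n = 3). The chemokines Cxcl2 and Ccl3 rose by 6.68 and 6.66. Among these 15 genes were 6 of the stefin A cluster on chromosome 16, inhibitors of cysteine proteases that are related in sequence (Stfa2, Stfa3, Cstdc4, Cstdc5, Stfa2l1 and Cstdc6). Stfa2 rose by 8.28, and Stfa3 was listed at 0 in the control libraries and measured 202, 263 and 125 TPM in the model libraries. The way in which the authors' counting divided reads between such relatives can change the value of each of them. The remaining places were taken by Asprv1, a protease of the skin barrier, Sprr2a2, a cornified envelope protein, and AA467197.

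The largest falls were those of a secretory protein, a detoxifying enzyme and a run of muscle genes. Bpifa1, an antimicrobial protein of the upper airway epithelium, differed widely within the control group. It measured 170, 1162 and 4033 TPM there and 44.4, 6.75 and 38.7 TPM in the model group, −5.27 on the log2 scale with a standard error of 1.19 (adjusted p = 0.00732). Gsta2, a glutathione transferase, varied little within the control group. It measured 38.7, 41.0 and 44.8 TPM there and 0.397, 0.225 and 1.24 TPM in the model group (−4.76 on the log2 scale, standard error 0.23, adjusted p = 8.81e-06). Npr3, the clearance receptor for natriuretic peptides, fell by 4.49 from 65.2 ± 22.1 to 1.86 ± 0.163 TPM (SD, n = 3). Tmem100, an endothelial protein downstream of BMP signals, measured 508, 572 and 455 TPM in the control and 26.6, 24.2 and 41.5 TPM in the model libraries (log2 fold change −4.05). Of the other genes with the largest falls, Cox8b, Tnni3, Mb, Myl1, Csrp3, Tnnc1, Ckm and Myl7 are genes of striated muscle, and Hamp, the iron hormone hepcidin, is also made in heart. All 9 were lowest in C1 and highest in C3 within the control group, as the heart sum was. Pon1, a lipoprotein-bound esterase, had a log2 fold change of −4.02 and was lowest in C1 and highest in C3 as well.

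**Figure D4:**
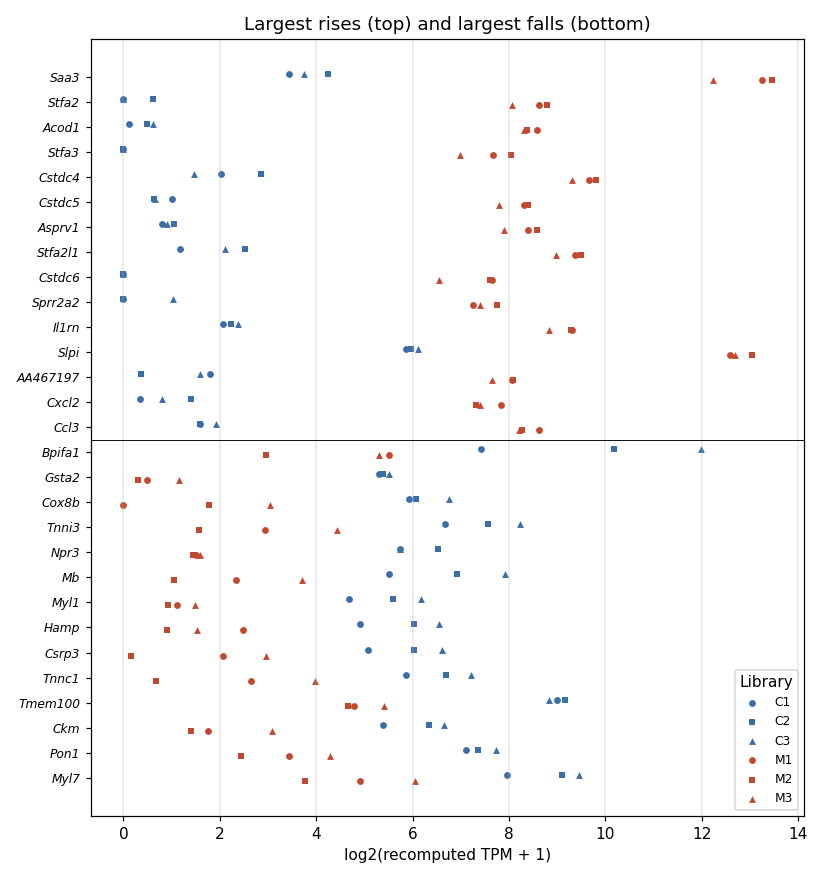
Values of each library, as log2(recomputed TPM + 1) on the horizontal axis, for the largest rises (top) and the largest falls (bottom) by the naming rule, with control libraries in blue and model libraries in red. The naming rule required that no library of one group overlap the other group, so this holds for all genes shown by selection. Bpifa1 spreads most widely within the control group (170 to 4033 TPM).

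Promoters of the first 3 rises and the first 3 falls, from RefSeq on GRCm38.p6, show the sequence around the start sites of these genes (250 bases before the start and 50 after it). They were searched on either strand for a C/EBP motif (TTGCNNAA), an AP-1 motif (TGANTCA), an ETS motif (CCGGAAG), a forkhead motif (TGTTTAC) and the kappaB decamer of NF-kB, and capitals mark a match.
Saa3 (minus strand, chr7:46715627-46715926): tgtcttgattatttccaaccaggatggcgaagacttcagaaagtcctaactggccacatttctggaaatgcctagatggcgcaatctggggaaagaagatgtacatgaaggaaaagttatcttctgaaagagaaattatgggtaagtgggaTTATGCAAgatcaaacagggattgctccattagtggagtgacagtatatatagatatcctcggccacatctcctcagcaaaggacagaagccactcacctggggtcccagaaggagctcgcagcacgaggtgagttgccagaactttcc
Stfa2 (minus strand, chr16:36408314-36408613): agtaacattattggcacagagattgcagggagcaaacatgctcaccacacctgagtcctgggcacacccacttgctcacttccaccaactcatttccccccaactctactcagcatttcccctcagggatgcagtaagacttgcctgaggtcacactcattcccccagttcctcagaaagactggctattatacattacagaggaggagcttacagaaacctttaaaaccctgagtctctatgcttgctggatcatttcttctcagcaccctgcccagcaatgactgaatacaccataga
Acod1 (plus strand, chr14:103046762-103047061): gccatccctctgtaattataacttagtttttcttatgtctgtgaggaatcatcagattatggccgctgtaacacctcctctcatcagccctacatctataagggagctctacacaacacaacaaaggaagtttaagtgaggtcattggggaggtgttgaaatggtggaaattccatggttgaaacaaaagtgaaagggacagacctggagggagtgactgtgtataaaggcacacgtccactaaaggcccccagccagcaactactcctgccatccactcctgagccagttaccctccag
Bpifa1 (plus strand, chr2:154142630-154142929): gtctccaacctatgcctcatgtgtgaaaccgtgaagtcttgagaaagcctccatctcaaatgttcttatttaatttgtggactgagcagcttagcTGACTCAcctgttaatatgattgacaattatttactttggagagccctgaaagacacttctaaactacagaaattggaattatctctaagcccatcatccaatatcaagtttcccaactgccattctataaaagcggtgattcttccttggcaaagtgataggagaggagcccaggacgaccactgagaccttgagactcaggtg
Gsta2 (minus strand, chr9:78347096-78347395): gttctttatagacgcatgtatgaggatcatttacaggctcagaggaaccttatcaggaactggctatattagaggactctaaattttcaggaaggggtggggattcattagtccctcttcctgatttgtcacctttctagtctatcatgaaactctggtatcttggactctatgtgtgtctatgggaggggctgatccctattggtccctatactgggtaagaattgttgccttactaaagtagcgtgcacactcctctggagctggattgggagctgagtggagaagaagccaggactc
Cox8b (minus strand, chr7:140900397-140900696): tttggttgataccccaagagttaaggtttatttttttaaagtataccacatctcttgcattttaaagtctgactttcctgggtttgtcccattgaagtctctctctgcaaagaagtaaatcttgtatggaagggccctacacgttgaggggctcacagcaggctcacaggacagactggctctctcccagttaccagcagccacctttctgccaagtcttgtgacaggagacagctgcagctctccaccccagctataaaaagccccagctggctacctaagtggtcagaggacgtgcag
The Saa3 promoter held 1 match, a C/EBP motif that begins at position −99 from the start, and the Bpifa1 promoter 1, an AP-1 motif at −155. The other 4 held none of the 5 motifs in this window. Of 27025 RefSeq promoters of this length, 10.8% held the C/EBP motif, 7.93% the AP-1 motif, 8.18% the kappaB decamer, 9.12% the ETS motif and 3.55% the forkhead motif. Over the 11138 tested genes with a promoter the shares were 8.64% for C/EBP, 5.39% for AP-1, 10.2% for kappaB, 17.2% for ETS and 2.61% for forkhead. In the same order they were 12.0%, 8.60%, 12.3%, 10.3% and 2.49% over the 1604 of these that rose, and 7.81%, 4.98%, 10.1%, 12.7% and 2.57% over the 3111 that fell. A match is a run of letters and not a shown binding site.

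Some genes were listed at 0 in all libraries of 1 group and reached at least 1 TPM in all libraries of the other, 27 in the direction of the model group (14 protein-coding) and 19 in that of the control group (5 protein-coding). Csf3, the growth factor of neutrophils, was listed at 0 in the control libraries and measured 10.2, 6.79 and 7.93 TPM in the model libraries. Il17a, the cytokine of Th17 cells, was listed at 0 and measured 3.48, 5.96 and 2.86 TPM, and Retnlb, a resistin-like protein of mucosal epithelium, at 0 and 19.4, 13.6 and 10.2 TPM. In the other direction, Gsta1, a close relative of Gsta2, and Defb25, a beta-defensin, were at 0 in the model libraries, with 1.71 to 2.63 TPM and 2.13 to 2.21 TPM in the control libraries. An identifier of Nnt, a mitochondrial transhydrogenase, was also at 0 in the model group and at 9.59, 15.7 and 10.1 TPM in the control group. A second identifier of Nnt overlaps it on the same strand of chromosome 13 and measured 16.3 to 20.8 TPM in the control and up to 20.3 TPM in the model libraries, with overlap, so the division of reads between these entries is uncertain. Most of the remaining genes were predicted genes, assembled loci or copies of 5S ribosomal RNA. Csf3 and Il17a belong to lists below, and the other genes of this paragraph were chosen after their values were seen.

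Neutrophils carry antimicrobial granules and are the granulocytes that LPS calls into the lung. Of 23 neutrophil genes listed 22 passed the filter on low values, and these rose. Among them S100a8 and S100a9, the subunits of calprotectin, were among the most abundant transcripts of the model group. S100a9 measured 158, 333 and 141 TPM in the control and 12967, 14842 and 6770 TPM in the model libraries. Lcn2, an iron-chelate binding protein of granules and epithelium, rose by 6.10 and Clec4e, a lectin that senses mycobacterial glycolipid, by 6.18 (standard error 0.09, adjusted p = 5.63e-07). The median log2 fold change of the list was 4.54. M3 was the lowest of the model libraries in S100a9, Lcn2 and the summed list.

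Chemokines rose in part. Among CXC chemokines 10 of 16 rose and 2 fell (median 2.56). Cxcl2, a ligand of the neutrophil receptor CXCR2, measured 0.261, 1.64 and 0.748 TPM in the control and 228, 159 and 168 TPM in the model libraries. Ppbp, a chemokine of platelets, fell by 3.47 and Cx3cl1, the membrane-bound fractalkine, by 1.28. Cxcl17, a mucosal chemokine of airway epithelium, rose by 1.69 from higher levels. Of 20 CC chemokines 11 rose and 2 fell (median 1.56). Ccl8, a ligand for monocytes, rose by 5.11, and Ccl6, abundant in macrophages, from 134 to 202 TPM in the control to 502 to 571 TPM in the model libraries. Those that fell were Ccl17 (by 1.77), a ligand of CCR4, and Ccl27a (by 2.08), an epithelial ligand of CCR10. Chemokine receptors rose in 9 of 16 cases, such as Ccr1 on monocytes and neutrophils (3.46), and the scavenging receptors Ackr2 and Ackr4 fell by 2.39 and 2.21.

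Genes of LPS sensing and the cytokines downstream of it mostly rose. Of 17 genes of Toll-like receptors and LPS sensing 14 rose and 0 fell (median 2.25). Cd14, the co-receptor of LPS, measured 33.2, 45.3 and 50.4 TPM in the control and 562, 590 and 405 TPM in the model libraries. Tlr13, a receptor for bacterial ribosomal RNA, rose by 3.58, and Tlr4 itself by 0.95, from 9.51 to 11.4 TPM in the control to 19.8 to 21.7 TPM in the model libraries. In the IL-1 family and inflammasome list 12 of 16 rose (median 1.81). Il1b measured 12.7, 17.5 and 13.1 TPM in the control and 651, 633 and 473 TPM in the model libraries, and Il33, an alarmin of epithelium and stroma, rose by 2.20. No member of this list fell under all 3 scalings, but 1 did without C2. Of the TNF and NF-kB feedback genes 14 of 18 rose and 1 fell (median 1.66). Tnf rose by 4.90 (1.45, 0.738 and 2.42 TPM against 79.6, 65.6 and 71.5 TPM), and Nfkbia, the inhibitor that NF-kB induces against itself, by 1.31. Traf1, an adaptor of TNF receptors, fell by 0.61, a call that was not kept under all 3 scalings when C1, C2, M1, M2 or M3 was left out. Of 25 cytokines of T and myeloid cells listed only 13 passed the filter on low values. Of these 9 rose, with Ebi3, a subunit of IL-27 and IL-35, at 3.99, and Tslp, an epithelial alarmin, fell by 1.56. Members such as Csf3, listed at 0 in the control libraries, passed the filter through the model group alone, which fixed their direction. Il6 stayed low in TPM (0.0295 to 0.478 in the control and 4.07 to 6.24 in the model libraries) and rose by 2.38.

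Acute-phase proteins rose in 14 of 16 cases and fell in 0 (median 2.48). Orm2, an orosomucoid, measured 0.420, 0.133 and 0.419 TPM in the control and 73.9, 58.8 and 73.6 TPM in the model libraries, and Lrg1, a leucine-rich glycoprotein, rose by 3.65. Genes that interferons induce rose in 26 of 27 cases (median 2.16). Isg15, a ubiquitin-like protein, went from 31.3 to 47.1 TPM to 345 to 568 TPM and Zbp1, a sensor of Z-form nucleic acids, rose by 4.10. Irf1 had a log2 fold change of 0.46 and was not called under all 3 scalings.

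Antigen presentation rose unequally. Of the genes of MHC class I and the immunoproteasome 15 of 18 rose and 0 fell (median 1.17). B2m, the shared light chain of class I, went from 1616 to 1882 TPM to 5551 to 6052 TPM (log2 fold change 1.75), and H2-K1 rose by 1.27. MHC genes have near copies, so values of single H2 genes are uncertain. Of 12 MHC class II genes 5 rose (median 0.63), and 3 did without C2, C3, M1 or M3. The largest of these was Ctss, a cathepsin that trims the invariant chain in several myeloid cells (167, 166 and 167 TPM against 2028, 2164 and 1902 TPM, log2 fold change 3.60). Cd74, the invariant chain itself, rose by 1.00. H2-Aa, a class II chain, measured 829, 620 and 591 TPM in the control and 836, 894 and 1145 TPM in the model libraries and was not called under all 3 scalings.

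Most receptors for antibodies rose, and complement proteins moved in both directions. Fc receptors rose in 10 of 12 cases (median 2.44), among them Pigr, which carries IgA and IgM across epithelium (41.9, 65.4 and 90.7 TPM against 500, 401 and 453 TPM), and Fcgr3, a low-affinity IgG receptor, by 3.15. Of 20 complement genes 10 rose and 4 fell (median 0.55). Cfb, of the alternative pathway, rose by 3.74 and C1qa, of the classical pathway, by 2.35. C7 fell by 1.23, and the membrane regulators Cd55 and Cd59a by 0.74 and 0.79. The fourth was Cfd, made by fat cells, which measured 106, 250 and 246 TPM in the control and 31.2, 2.49 and 44.3 TPM in the model libraries. Without C3 its call was lost (adjusted p = 0.0539) and 2 complement genes fell.

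Plasma cells secrete antibodies, and their genes other than the segments rose in 18 of 18 cases (median 2.63). Jchain, which joins IgA and IgM, measured 312, 125 and 393 TPM in the control and 14713, 18435 and 18768 TPM in the model libraries. Mzb1, a chaperone of antibody assembly, rose by 5.95. Of 20 B-cell and germinal-centre genes 13 rose and 0 fell (median 1.36), with Cd79a, a signalling chain of the B-cell receptor, at 3.06. T-cell genes rose in 12 of 19 cases (median 0.90). Ctla4, an inhibitory receptor, went from 0.478 to 0.945 TPM to 6.96 to 8.18 TPM, and Il7r, the receptor of a survival cytokine, rose by 1.45. Ctla4 was under 1 TPM in each control library and passed the filter on low values through the model group alone, which fixed its direction. No T-cell gene fell, but 1 did without M3. Cytotoxic and NK-cell genes did not follow. Of 8 tested Gzmb rose (1.88), Gzma and Ncr1 fell (by 1.07 and 1.62) and 5 were not called. Genes of ER folding and secretion rose in 16 of 30 cases (median 0.57) with Ssr4, of the translocon, at 2.05 and Hsp90b1, a chaperone, at 1.14. Of that list 0 genes fell, and 1 did without C1.

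Macrophage genes changed by subtype. Genes of monocytes and recruited macrophages rose in 18 of 20 cases (median 3.46). Spp1, the matrix protein osteopontin, measured 37.1, 27.4 and 59.3 TPM in the control and 1346, 1414 and 1673 TPM in the model libraries, Arg1, which degrades arginine, rose by 6.40 and Apoe, which carries lipid, by 3.55. Genes of resident alveolar macrophages rose in 6 of 17 cases and fell in 5 (median −0.07, −0.36 on the deposited and 0.20 on the median-ratio scale). Fabp1 and Ear1 fell by 3.44 and 1.83, and Car4, which is also a gene of capillary endothelium, by 2.79. The largest rise of that list was that of Il1rn. Lysosomal genes rose in 22 of 28 cases and fell in 0 (median 1.56), with the protease Ctsd at 3.30 and Psap, the precursor of saposins, from 510 to 550 TPM to 3220 to 3517 TPM. In the list of oxidases 6 of 7 genes rose, those of the phagocyte oxidase, such as Ncf1 (3.23) and Cyba (1.99), while Nox4, an oxidase of stromal and endothelial cells, fell by 1.68. In the list of itaconate, arginine and tryptophan enzymes 7 of 12 rose and 0 fell (median 1.11). Acod1 of this list, at most 0.523 TPM in the control libraries, passed the filter on low values through the model group alone, which fixed its direction.

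Other leukocyte lists were mixed. Dendritic-cell genes rose in 6 of 14 cases and fell in 4. Those that fell were Clec9a of conventional dendritic cells (22.9, 18.5 and 18.2 TPM against 2.66, 2.59 and 4.51 TPM), Zbtb46, and the lectins Cd209a and Clec10a. Which cells the fall of Zbtb46 came from was not tested. Itgax and Irf8, which macrophages and B cells also express, rose by 1.40 and 1.01. Of 5 mast-cell and basophil genes tested 3 fell, and 1 did without C1, C3 or M3. Gata2, which endothelium also expresses, fell by 2.95. The only rise of that list, Il4ra, was lost without C1, C3, M1 or M2. Enzymes and receptors of eicosanoids, the lipid mediators from arachidonic acid, rose in 10 of 23 cases and fell in 4 (median 0.54). Alox5ap, needed for leukotriene synthesis, rose by 2.58 and Ptges, which makes prostaglandin E2, by 2.30. Hpgd, which inactivates prostaglandins, measured 364, 341 and 353 TPM in the control and 25.0, 24.0 and 39.0 TPM in the model libraries (log2 fold change −3.58), and Ptgis, which makes prostacyclin, fell by 2.15.

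Cell-cycle genes rose in 18 of 27 cases and 1 fell (median 1.72). Birc5, of the mitotic spindle, measured 3.94, 4.46 and 3.83 TPM in the control and 39.2, 40.3 and 41.0 TPM in the model libraries, and the gene that fell was Ccnd1, a G1 cyclin (by 0.77). The BCL2 family and caspases, which set the threshold for apoptosis, moved in both directions with 9 of 25 higher and 4 lower (median 0.22, −0.06 on the deposited scale). Bcl2a1b, an antiapoptotic gene of leukocytes with near copies, rose by 2.98 and Mcl1 by 0.61. Bik fell by 1.26, Bbc3 by 0.85, Casp6 by 0.78 and Xiap by 0.71. Bcl2 (−0.55), Bax (−0.08) and Casp9 (0.69) were not called under all 3 scalings. Of 15 p53 and senescence genes 2 rose and 3 fell, and 1 rose without C3, M1 or M3. Sphingolipid enzymes rose in 7 of 31 cases and fell in 5 (median 0.03, −0.25 on the deposited scale). Sgpl1, which degrades sphingosine 1-phosphate, rose by 1.70 and Acer2, a Golgi ceramidase, fell by 2.11. Mapk3 had a log2 fold change of −0.49, Mapk8 of −0.18 and Nfkb1 of 0.47, none of them called under all 3 scalings.

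**Figure D5:**
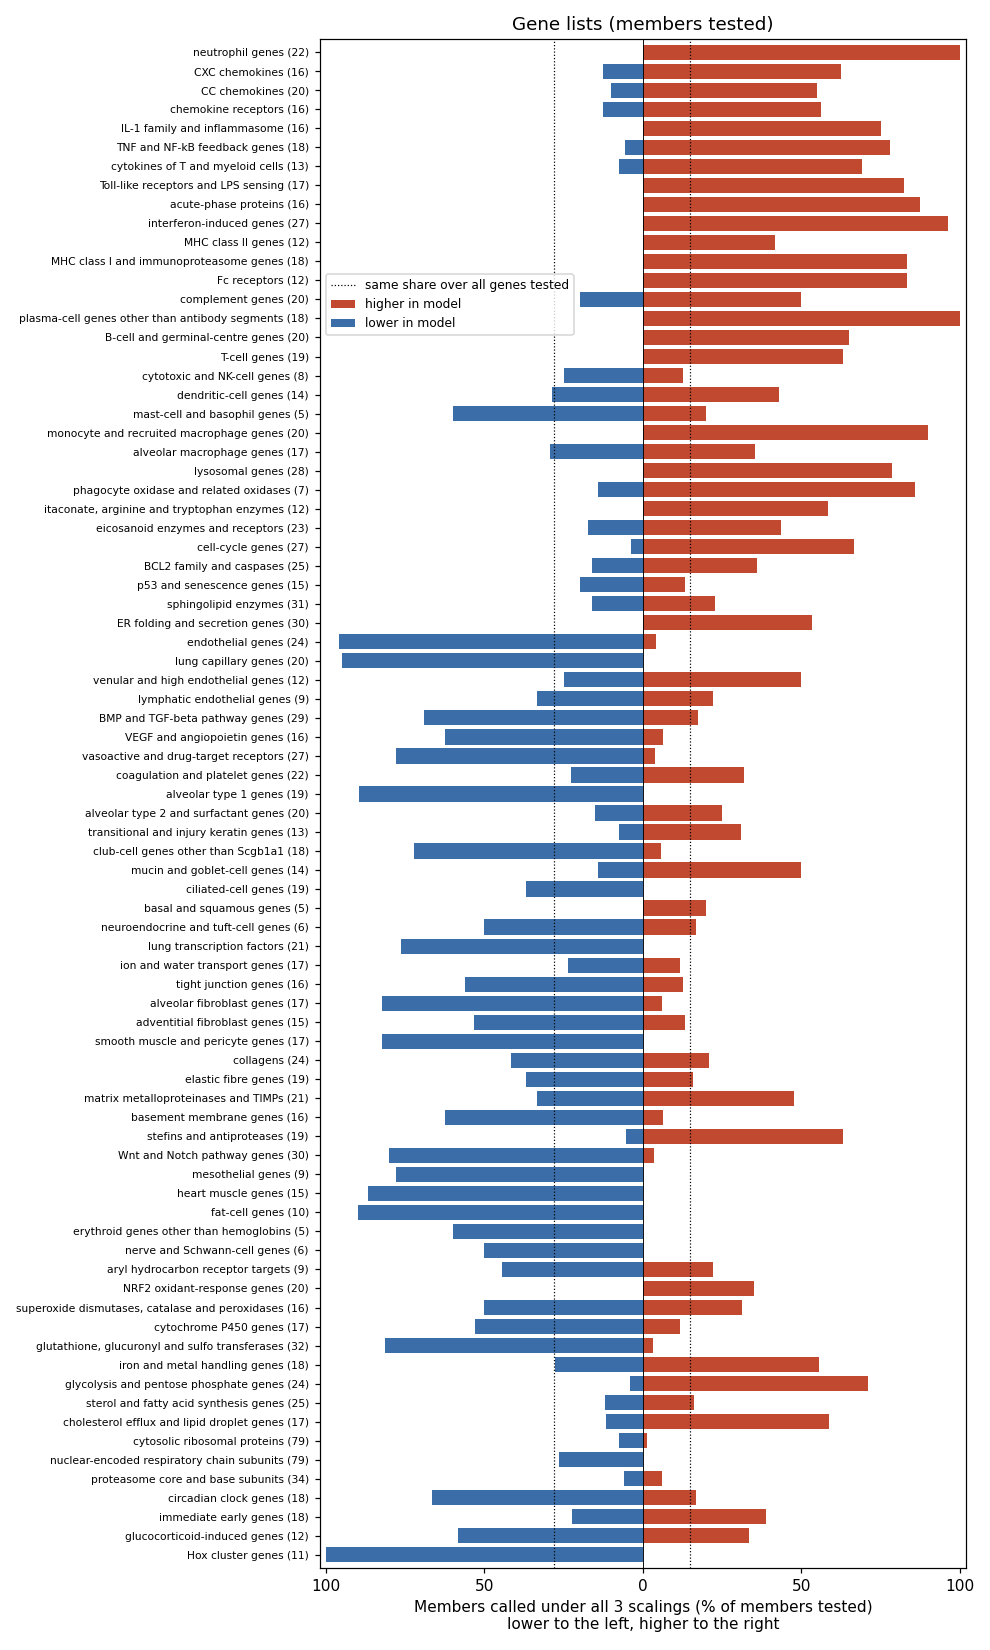
Share of the tested members (number in parentheses) of each of 80 gene lists that rose (red, to the right) or fell (blue, to the left) under all 3 scalings, with dotted lines at the shares over all genes tested, 14.8% and 28.1%. Neutrophil and plasma-cell lists rose in all members tested, and endothelial (23 of 24), lung capillary (19 of 20) and Hox genes (11 of 11) fell in nearly all or all.

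Genes of endothelium and lung capillaries mostly fell, while venular genes moved in both directions. Counts of lymphatic genes lay near the shares over all genes (14.8% risen and 28.1% fallen). Of 24 endothelial genes 23 fell and 1 rose (median −2.04). Cldn5, a claudin of endothelial junctions, measured 647, 634 and 580 TPM in the control and 64.8, 64.7 and 70.7 TPM in the model libraries (−3.20 on the log2 scale, standard error 0.08, adjusted p = 1.88e-06). Ramp2, a partner of the adrenomedullin receptor, had a log2 fold change of −3.17 and Egfl7, a secreted vessel protein, one of −2.93. The exception was Lyl1 (1.06), a transcription factor that blood cells also express. Lung capillary genes fell in 19 of 20 cases (median −2.25), such as Gpihbp1, which holds lipoprotein lipase on capillaries (377, 391 and 347 TPM against 84.1, 95.1 and 73.2 TPM). Genes of venules and high endothelial venules, where leukocytes leave the blood, rose in 6 of 12 cases and fell in 3 (median 0.90). Ackr1, a chemokine-binding protein of venules, rose by 2.14, and Icam2, Podxl and Cd34 were those that fell. Of 9 lymphatic genes 3 fell, such as Lyve1 (by 2.31), and 2 rose, Thy1 and Reln. Of these, 1 rose without C1, C2, C3, M1 or M2 and 0 without M3.

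Signals that act on vessels mostly fell. In the BMP and TGF-beta pathways 20 of 29 fell and 5 rose (median −1.21). Acvrl1, the endothelial BMP receptor ALK1, fell from 250 to 282 TPM to 47.9 to 59.6 TPM, its inhibitory target Smad6 by 3.40 and Id1, a target gene, by 1.89. The genes that rose were Tgfb1 (0.64), its receptors Tgfbr1 (1.29) and Tgfbr2 (0.77), the BMP antagonist Grem1 (1.05) and Id2 (0.64), and 3 rose without M1. Of 16 VEGF and angiopoietin genes 10 fell and 1 rose (median −1.22). Vegfa, the growth factor of endothelium, measured 673, 567 and 538 TPM in the control and 108, 99.8 and 147 TPM in the model libraries, and Tek, the angiopoietin receptor, fell by 3.01. Nrp2, a co-receptor, rose by 0.66, a call lost without C2, C3, M1 or M2. Vasoactive and drug-target receptors fell in 21 of 27 cases (median −1.54). Ace, which makes angiotensin II, fell by 1.64 and Npr1, a receptor of natriuretic peptides, by 2.60, while the adenosine receptor Adora2b rose by 1.30. Genes of coagulation and platelets rose in 7 of 22 cases and fell in 5 (median 0.15, −0.14 on the deposited scale). F10, the coagulation factor X, measured 2.88, 3.01 and 2.60 TPM in the control and 141, 141 and 96.9 TPM in the model libraries. Thbd, the anticoagulant receptor of endothelium, fell by 2.87, and the platelet genes Ppbp, Gp9 and Itga2b by 3.47, 1.98 and 1.40.

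The alveolar epithelium changed by cell type. Type 1 genes fell in 17 of 19 cases and rose in 0 (median −1.42). Ager, the receptor RAGE, measured 2459, 2956 and 2104 TPM in the control and 900, 898 and 820 TPM in the model libraries, Cav1, of caveolae, fell by 2.05 and Igfbp2 by 3.11. Type 2 and surfactant genes rose in 5 of 20 cases and fell in 3 (median 0.25, −0.04 on the deposited scale), and 1 fell without C1, C2, M1, M2 or M3. Sftpc fell by 0.89 and Nkx2-1, the lineage transcription factor of the lung, by 1.13, while Sftpd, a surfactant lectin, rose by 1.30 (723, 981 and 719 TPM against 2112, 2110 and 1729 TPM) and Scd1, a fatty acid desaturase, by 1.92. Transitional and injury keratin genes rose in 4 of 13 cases and Krt7 fell (median 0.03, −0.25 on the deposited scale). Without C1 2 of that list fell, and without M3 0. Transcription factors of lung development fell in 16 of 21 cases (median −1.16), such as Foxf1 (159, 164 and 143 TPM against 17.7, 18.1 and 23.6 TPM) and Tcf21 of mesenchyme. Of that list 0 genes rose, and 1 did without C3 or M2. Tight junction genes fell in 9 of 16 cases and rose in 2 (median −0.62), with F11r at −0.99 and Cldn1 at 1.03.

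In the airways, club-cell genes other than Scgb1a1 fell in 13 of 18 cases (median −2.49). Cyp2f2, a cytochrome P450 of club cells, measured 4932, 5458 and 6300 TPM in the control and 414, 208 and 645 TPM in the model libraries, and Cbr2, a carbonyl reductase, fell by 2.51. The gene that rose was Retnla, a resistin-like protein that macrophages also make (81.6, 65.5 and 61.7 TPM against 7050, 4807 and 5767 TPM), and 2 rose without C3. Mucin and goblet-cell genes rose in 7 of 14 cases (median 1.32). Itln1, an intelectin, was uneven within the model group at 81.4, 18.5 and 116 TPM against 1.46 to 2.51 TPM in the control group, and Gp2 rose by 5.43. Muc16 and Fcgbp fell by 2.19 and 1.14, and 1 of the list fell without C2, C3 or M2. Ciliated-cell genes depended most on single libraries. Of 19 tested 7 fell and 0 rose (median −1.14), with 3 lower without C1, 2 without C2, 1 without C3 and 15 without M3. Tppp3, a tubulin-binding protein of cilia, measured 813, 701 and 828 TPM in the control and 233, 122 and 312 TPM in the model libraries, and Foxj1, the regulator of cilia, 91.3 to 123 TPM in the control and at most 84.7 TPM in the model libraries (not called, adjusted p = 0.0566, and chosen after its values were seen). Basal and squamous genes had 5 members tested, of which 1 rose, the cornified envelope gene Sprr2a3 (6.07), and 5 rose without C3. Of 6 neuroendocrine and tuft-cell genes 3 fell and 1 rose. Ion and water transport genes fell in 4 of 17 cases and rose in 2, and 1 rose without C1, C2, M1 or M3. Among them Slc26a4, the anion exchanger pendrin, rose by 3.80 (1.22, 0.605 and 0.673 TPM against 23.5, 31.5 and 19.1 TPM) and Scnn1b, a subunit of the sodium channel, fell by 1.97.

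Fibroblast and muscle genes fell, and some matrix genes rose. Alveolar fibroblast genes fell in 14 of 17 cases (median −1.64). Inmt, an amine methyltransferase, measured 4229, 3414 and 3048 TPM in the control and 392, 390 and 407 TPM in the model libraries, and the exception was Plin2, a lipid droplet protein also of macrophages (1.46). Adventitial fibroblast genes fell in 8 of 15 cases and in 5 without C1, with Igfbp6 at −3.20. The 2 that rose were Ly6a (0.59) and Igfbp4 (0.68), 1 without C1, C3 or M1 and 0 without C2 or M2. Genes of smooth muscle and pericytes fell in 14 of 17 cases (median −1.56), such as Acta2 (166 to 266 TPM against 58.6 to 78.9 TPM), and 0 rose, but 1 did without C3. Of 24 collagens 5 rose and 10 fell (median −0.23, 0.04 on the median-ratio scale). The fibrillar collagens Col1a1 (1.47), Col1a2 (0.89), Col3a1 (1.37) and Col5a2 (0.94) rose, with Col3a1 at 190, 123 and 139 TPM in the control and 331, 478 and 356 TPM in the model libraries. Col15a1, of basement membranes of vessels, rose as well (1.58). Elastic fibre genes fell in 7 of 19 cases and rose in 3 (5 without C1), with Ltbp4 at −2.27 and Emilin2 at 3.73. Eln, elastin itself, measured 86.9, 59.6 and 64.0 TPM in the control and 108, 115 and 83.7 TPM in the model libraries, which overlap, and was not called under all 3 scalings. Basement membrane genes fell in 10 of 16 cases (median −0.78), such as Lamb2 (by 1.97), and Lamb3 rose by 1.11.

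Proteases and their inhibitors moved in both directions. Of 21 matrix metalloproteinases, ADAM genes and TIMPs 10 rose and 7 fell (median 0.52). Timp1, an inhibitor of these proteases, measured 10.8, 9.83 and 10.8 TPM in the control and 165, 253 and 127 TPM in the model libraries, while Timp3, bound to matrix, fell by 0.98 and Mmp28 by 2.17. Stefins and antiproteases rose in 12 of 19 cases (median 1.92), and 1 fell, Serpinh1, a chaperone of collagen (−1.43). Stefin genes such as Stfa2, at most 0.531 TPM in the control libraries, passed the filter on low values through the model group alone. Their direction was fixed by this, so the count is not evidence about the list as a whole. Wnt and Notch pathway genes fell in 24 of 30 cases and 1 rose (median −1.14). Hey1, a target of Notch, fell by 2.83 (91.1, 80.2 and 67.0 TPM against 10.3, 8.78 and 11.7 TPM), the endothelial Notch ligand Dll4 also fell (−2.23), and the Wnt antagonist Sfrp1 rose by 2.42. All 11 genes of the Hox clusters tested fell (median −1.45), among them Hoxa5 (45.3, 44.4 and 39.9 TPM against 8.86, 7.78 and 8.90 TPM).

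Many enzymes that handle smoke compounds fell. Aryl hydrocarbon receptor targets, which polycyclic hydrocarbons of smoke induce, fell in 4 of 9 cases and rose in 2, 1 without C3, M1 or M3. Cyp1a1, the classical target, measured 24.3, 29.3 and 27.3 TPM in the control and 1.21, 0.806 and 1.44 TPM in the model libraries (log2 fold change −3.71, adjusted p = 5.65e-06), whereas Cyp1b1 rose by 1.53 and Tiparp by 0.71. The time from the last smoke to the collection of lungs is not given in the sources used here. Glutathione, glucuronyl and sulfo transferases and related enzymes fell in 26 of 32 cases and 1 rose (median −1.39), with Gstm1 at −2.96 and Ugt1a7c at 1.26. Of 17 cytochrome P450 genes outside the other lists 9 fell and 2 rose (median −0.85). Cyp2s1, of airway epithelium, fell, and Cyp4f18, which inactivates leukotriene B4 in neutrophils, rose by 4.12. Genes of the oxidant response under NRF2 rose in 7 of 20 cases and fell in 0 (median 0.47). Hmox1, which breaks down heme, rose by 2.49 (41.4, 54.9 and 49.7 TPM against 281, 254 and 296 TPM) and Fth1, the ferritin heavy chain, by 1.69. Of 16 superoxide dismutases, catalase and peroxidases 8 fell and 5 rose (median −0.67). Prdx6 measured 2119, 2410 and 2405 TPM in the control and 387, 303 and 464 TPM in the model libraries and Sod1 fell by 1.44, whereas Sod2, of mitochondria, rose by 1.36 and Prdx5 by 2.00. Iron and metal handling genes rose in 10 of 18 cases and fell in 5, 2 without C1 or C2 and 3 without M1 or M3, with Slc11a1, of phagocyte lysosomes, at 3.58.

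Glycolysis rose, while lists of respiration and protein turnover lay near the median of all genes. Glycolysis and pentose phosphate genes rose in 17 of 24 cases (median 1.11). Gapdh measured 358, 406 and 448 TPM in the control and 1113, 1165 and 1004 TPM in the model libraries, the sugar transporter Slc2a6 rose by 4.01 and Pfkm, the muscle form of phosphofructokinase, fell by 1.26. Genes of sterol and fatty acid synthesis rose in 4 of 25 cases (2 without M1) and fell in 3 (median 0.03, −0.25 on the deposited scale). Cholesterol efflux and lipid droplet genes rose in 10 of 17 cases and fell in 2 (median 1.14). Apoc2 rose by 5.09, and Cd36, a fatty acid transporter, fell by 1.35. Cytosolic ribosomal protein genes rose in 1 of 79 cases and fell in 6 (median −0.22, 0.05 on the median-ratio scale). Without C1, C3 or M1 2 of them fell, and the rise of Rplp0 was lost without C1, C2, C3, M1 or M2. Nuclear-encoded respiratory chain subunits fell in 21 of 79 cases and in 13 without C3 (median −0.32). Cox4i2, an isoform of lung and smooth muscle, fell by 2.19. Proteasome subunits rose in 2 of 34 cases and fell in 2 (1 without C1, C3, M1 or M3), with a median of −0.02, −0.30 on the deposited and 0.25 on the median-ratio scale.

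Genes that follow the time of day and acute stimuli were not level between the groups. Of 18 circadian clock genes 12 fell and 3 rose (median −1.40). Nr1d1, the repressor REV-ERB alpha, measured 131, 92.5 and 139 TPM in the control and 29.9, 24.0 and 32.3 TPM in the model libraries and Dbp, an output gene of the clock, fell by 1.50. Nfil3, which opposes Dbp, rose by 1.79, as did Bhlhe40 (1.33) and Bhlhe41 (1.31). The hour at which each lung was taken is not given in the sources used here, so the hour and the group cannot be told apart for these genes. Immediate early genes, which rise within minutes of a stimulus or of dissection, rose in 7 of 18 cases and fell in 4 (median 0.34). Atf3 rose by 2.77 and Junb by 1.46, while Klf2 and Klf4, kept high by blood flow in endothelium, fell by 0.98 and 2.35. Of 12 glucocorticoid-induced genes 4 rose and 7 fell (median −0.97), with Fkbp5 at 1.19 and Tsc22d3 at −1.12.

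KEGG pathways of the authors' annotation were ranked by their median, as a description. Entries of some genes are incomplete in the table used here, so counts are lower bounds. Of 282 pathways with at least 20 genes tested, the highest median log2 fold change was that of Staphylococcus aureus infection (1.53, with 30 of 55 genes risen and 4 fallen). It was followed by graft-versus-host disease (1.26), viral protein interaction with cytokine and cytokine receptor (1.23, 44 of 73 risen), autoimmune thyroid disease (1.20) and allograft rejection (1.14). The lowest medians were those of drug metabolism by cytochrome P450 (−1.35, 33 of 44 fallen), metabolism of xenobiotics by cytochrome P450 (−1.33), retinol metabolism (−1.18), chemical carcinogenesis (−1.13) and the Hippo pathway of multiple species (−0.83). Pathways share genes, so they are not separate results. H2-Eb2, H2-Q7 and Gzmb belong to graft-versus-host disease, autoimmune thyroid disease and allograft rejection alike. Gsta2, Gsta3, Gstm1 and Cyp2e1 belong to drug metabolism, metabolism of xenobiotics and chemical carcinogenesis alike.

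Genes that changed also lay side by side on chromosomes. In 14691 windows of 10 neighbouring tested genes, 19 held at least 9 genes that rose and 7 at least 9 that fell. At least 8 genes rose in 52 windows and at least 8 fell in 49. Windows overlap, so these counts are not counts of separate places. How many such windows the shares over all genes (14.8% risen and 28.1% fallen) would give was not tested. Windows of 10 risen genes of 10 lay at Cd300 receptors of myeloid cells on chromosome 11 (from 114890041 to 115133992 on GRCm38), at MHC class Ib genes of the H2-T region on chromosome 17 (from 36029773 to 36168537) and at predicted genes around Speer1 on chromosome 5 (from 10947805 to 11686856). Those of 9 included the stefin A genes on chromosome 16, the Ms4a genes of B cells and macrophages on chromosome 19 and the Ifit genes, also on chromosome 19. Among windows of fallen genes, 9 of 10 genes fell from Acadvl to 0610010K14Rik on chromosome 11 (from 70010183 to 70237914), which holds the lectins Asgr1, Asgr2 and Clec10a, and 8 of 10 fell at a Hoxb cluster window on chromosome 11 (from 96047432 to 96354012). Windows of 9 fallen genes of 10 also lay on chromosome 9, from Yap1 to Mtmr2, from Pccb to Slco2a1 and from Nprl2 to Lsmem2. Members of the Cd300, H2-T, Speer, stefin A, Ms4a and Ifit families are related in sequence and may share reads, and the windows were chosen after their values were seen.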

How the data were processed

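RNA of mouse lung was measured in 9 libraries, of which 6 were used. The authors deposited TPM per gene. Their notes name fastp for trimming and RSEM for quantification (the sources used here give no versions), and the build GRCh38.p6. That is a name of a human assembly, whereas gene identifiers are mouse ones, and 55226 of 55486 were found in GENCODE M21 (GRCm38), used for biotypes and coordinates. The authors' mean TPM per group and their gene lengths were not used. TPM were recomputed without 4 gene classes. Genes with at least 1 deposited TPM in at least 3 of 6 libraries entered a limma fit of log2(TPM + 1) (limma 3.58.1, R 4.3.3) (intensity trend, 4 residual degrees of freedom, 2-sided), adjusted by the Benjamini-Hochberg method over all genes tested, and again on deposited TPM and after median-ratio rescaling. Depth is unknown, so precision comes from the spread between libraries alone. Tables were read with Python 3.11.15 and pandas 2.3.3.

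The members and the 80 gene lists were chosen with earlier results of these data known, with 1710 entries of which 1541 passed the filter on low values and 11 have no such symbol in the table. Counts over a list cover only members that passed the filter, and some passed through 1 group alone, which fixed their direction. Named genes were, in each direction, the 15 largest changes that passed under all 3 scalings, with a mean of at least 5 recomputed TPM in the higher group, no overlap of libraries and no predicted gene. Others were, per list, the 3 called members with the highest mean, the member with the smallest p in each direction and members called against the majority, and the signal molecules of the study. Some genes that the rule names are not reported here. A gene named outside this rule was chosen after its values were seen. Alternatives were other scalings, pseudocounts and filters, a fit of all 9 libraries, a replicate block, no trend, other thresholds and each library left out in turn.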

Additional observations from a re-analysis of the deposited data

How the results depend on the processing

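The median log2 fold change over all genes was −0.26 as reported, −0.50 on TPM as deposited, −0.01 after median-ratio rescaling, −0.11 after quantile normalization and −0.08 with no filter on low values. The split of higher and lower calls was 3199 and 6456 as reported, 2288 and 8859 on TPM as deposited, 4537 and 4351 after median-ratio rescaling and 3950 and 5173 after quantile normalization. With an unadjusted p under 0.05 and a log2 change of at least 1 it was 1753 and 2632. Leaving out 1 library at a time gave 2784 to 3060 higher and 5329 to 6587 lower genes, and under all 3 scalings 2032 to 2263 and 3549 to 4303. Libraries of the groups share numbers in their labels, but the deviations of same-numbered libraries did not go together (r across genes −0.114, 0.113 and 0.128), and with a replicate block 3119 genes were higher and 6225 lower. Sftpc, the most abundant gene in every library, has no difference after quantile normalization by construction, and was not called with no filter (adjusted p = 0.194). A pseudocount of 0.1, a mean of at least 5 TPM, all 9 libraries, no intensity trend and the removal of predicted mitochondrial-like genes kept both counts within 1.5 times. Depth cannot be judged from TPM, and 3 libraries a group allow no exact test below 0.1.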

Other observations

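Among biotypes, 45 of 280 lincRNA genes tested rose and 111 fell (median log2 fold change −0.62), and of 559 loci assembled by the authors 135 rose and 132 fell (median −0.18), against 1969 and 3806 of 13552 protein-coding genes (median −0.25). Copies of 5S ribosomal RNA went both ways between the groups. The copy n-R5s141 was listed at 0 in the control libraries and measured 90.9, 82.4 and 244 TPM in the model libraries, and n-R5s105 measured 68.5, 26.6 and 444 TPM in the control libraries and was listed at 0 in the model libraries. The copies are near identical in sequence, so the values of single copies are uncertain. The largest fall over all genes tested was that of the processed pseudogene Gm12918 (388, 263 and 237 TPM in the control and 2.60, 0.00 and 0.00 TPM in the model libraries).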
